A study of Mus musculus with 44 samples.

Results

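A group of 161 array features gave a lower signal in RNA recovered with an AUF1 antibody than in RNA recovered with control IgG, in nearly all matched pairs of arrays from differentiating C2C12 cells. They were chosen by that measured difference, out of 25697 features on the array. A feature is the set of beads that carries 1 Illumina identifier and is designed against 1 transcript or transcript variant. Signals of the 29 pulldown arrays were taken to log2 and quantile normalized, which gives every array the same distribution of values. AUF1 and IgG arrays of the same day and the same experiment number were then paired (14 pairs). A member was detected (detection p-value under 0.05) on 10 or more of the 14 AUF1 arrays, lay below IgG in at least 13 pairs, and had a mean AUF1 minus IgG difference of -0.8 or lower. Differences between AUF1 and IgG among the members are therefore given as a description, with no test.

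C2C12 is a mouse myoblast line, an established model of muscle differentiation, and all samples came from this line. Growing cells kept in serum-rich growth medium made up day 0, and cells moved to differentiation medium with horse serum were taken on later days. AUF1 pulldown RNA was hybridised from day 0 (4 arrays), day 2 (3), day 4 (3) and day 6 (4), IgG pulldown RNA from day 0 (4), day 2 (3), day 4 (4) and day 6 (4), and input RNA, which saw no antibody, from days 0, 3 and 6 (5 each). The pulldown series and the input series thus share only days 0 and 6, and the input series has day 3 in place of days 2 and 4. The 5 input arrays of a day carry 4 experiment numbers, with 1 number used for 2 arrays (experiment 1 on day 0, 2 on day 3 and 3 on day 6), and the labels do not say whether those 2 are separate samples. They were counted as separate arrays. The input samples are called DNA in their titles and RNA in their other labels, and are taken as RNA here. The labels do not say that replicates came from separate cultures, so p-values measure only the spread between these samples, which may be technical.

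AUF1, also called hnRNP D, is a nuclear and cytoplasmic protein that binds AU-rich stretches of many mRNAs and can change their decay or translation. In RNA immunoprecipitation an antibody on beads recovers the protein from a cell lysate together with the RNA bound to it. The IgG arm measures the RNA that beads and antibody recover without that protein. When myoblasts differentiate they leave the cell cycle, switch on contractile and metabolic muscle genes and fuse into multinucleate myotubes. Features are named by Illumina identifier alone, and 0 of these could be matched to a gene with the tables used here, so the members carry no gene names, and the muscle and other cell type markers, the AUF1 gene and the sequences are not analysed here.

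Arrays differed in how much RNA signal they held. The share of features detected was 24.4% to 45.5% on the AUF1 arrays, 25.6% to 46.8% on the IgG arrays and 44.7% to 48.7% on the input arrays, and the mean signal was 82.5 to 282, 85.7 to 374 and 205 to 359 intensity units. In each of the 14 pairs the AUF1 array detected fewer features than its IgG partner, by 0.288 to 19 percentage points.

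Of the 7506 features detected on at least 10 AUF1 arrays, 712 lay below IgG in at least 13 of 14 pairs (9.49%), and the 161 members are those with a mean of -0.8 or lower (2.14%). In the opposite direction 887 detected features lay above IgG in at least 13 pairs, and 22 of them had a mean of 0.8 or higher. The members' mean difference had a median of -0.97 (log2) and ran from -2.20 to -0.80. The median of the 7345 other detected features was 0.04. Of the members, 69 were lower with AUF1 in all 14 pairs and 92 in 13. The features nearest to the limit were ILMN_1241638 (-0.802) and ILMN_2943818 (-0.801) inside it, and ILMN_2654068 (-0.798) and ILMN_2850753 (-0.795) outside it, so the limit cuts a continuous range. A further 37 detected features had a mean of -0.8 or lower but were below IgG in 12 pairs or fewer.

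The members were detected in the cells as a whole. On the input arrays, which had no part in the choice, 153 of the 161 members were detected on all 15 arrays (95.0%), beside 91.3% of the other detected features. The remaining 8 members were detected on fewer input arrays, and the member detected least often was seen on 9 of 15. In the pulldowns 108 members were detected on all 14 AUF1 arrays and 53 on 10 to 13, while 132 were detected on all 15 IgG arrays. Most members were thus measured in the input and in both pulldowns, as the rule asks for the AUF1 arrays, and had a lower level with AUF1.

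The size of the difference followed the pair and the day. On days 0, 2, 4 and 6 the members' median difference was -1.04, -1.30, -1.23 and -0.54, while the medians of the other detected features stayed between 0.01 and 0.06. Differences were narrower on day 6 outside the members too, where the lower and upper quartiles of the other detected features were -0.08 and 0.14. Their lower quartiles on days 0, 2 and 4 were -0.19, -0.33 and -0.29, and their upper quartiles 0.28, 0.32 and 0.35. On day 6 the difference was the smallest of the 4 days for 160 of 161 members. A day mean of -0.8 or lower was reached by 138, 161, 156 and 15 members on these days. All 161 members still had a day 6 mean below 0, with 16 of them above -0.3.

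On day 6 the pairs disagreed with each other. The members' median was -0.68 in experiment 1 and -1.24 in experiment 2, but -0.07 in experiment 3 and -0.12 in experiment 4. There were 47 members not below IgG in the pair of experiment 3 and 39 in that of experiment 4. On day 0 the medians were -1.41, -1.21, -1.08 and -0.53 for experiments 1 to 4, and 5 members were not below IgG in experiment 4. The 3 pairs of day 2 (-1.40, -1.57 and -0.997) and the 3 of day 4 (-1.26, -1.54 and -0.94) held every member below IgG. Of the 92 members that missed 1 pair, 86 missed it in experiment 3 or 4 on day 6. Of the 4 pairs of day 6, 2 thus had medians near 0.

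**Figure D1:**
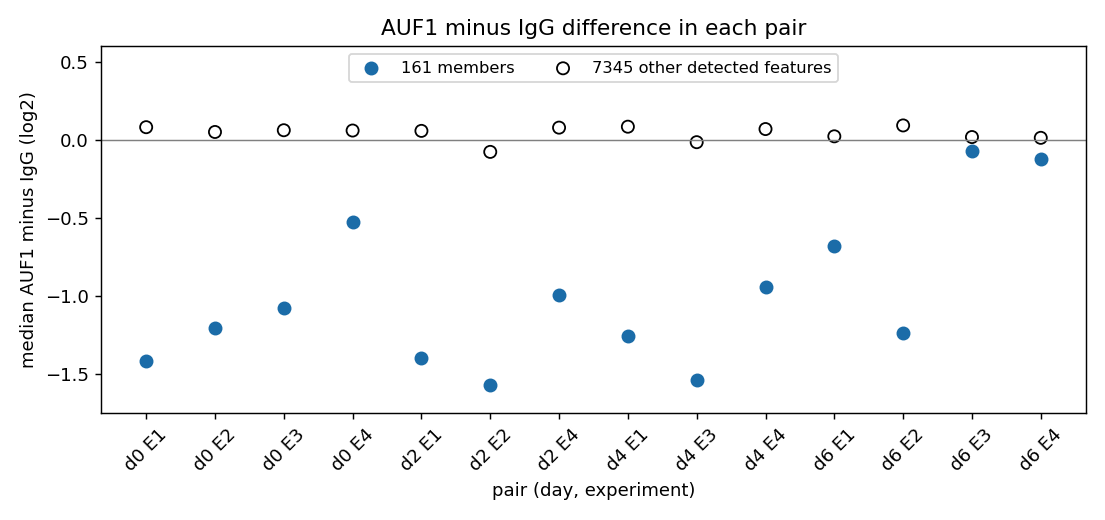
Median AUF1 minus IgG difference (log2, vertical axis) in each of the 14 pairs, named by day and experiment number, for the 161 members (filled points) and the 7345 other detected features (open circles). The members lie between -1.57 and -0.53 in 12 pairs and at -0.07 and -0.12 in the day 6 pairs of experiments 3 and 4, while the other features stay near 0.

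The members' level moved more in the IgG arm than in the AUF1 arm. Their median level on the AUF1 arrays lay between 7.74 and 8.37 (log2) in every pair. On the paired IgG arrays it was 8.13 and 8.35 in experiments 3 and 4 on day 6 and 8.31 in experiment 4 on day 0, against 8.85 to 9.62 in the other 11 pairs. The 3 pairs with the smallest differences are thus those with the lowest IgG level of the members.

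Yield moved with the same pairs. The gap in detected features between the AUF1 and IgG array was smallest in experiments 1 (-0.288 percentage points), 4 (-0.848) and 3 (-2.37) on day 6 and in experiment 4 on day 0 (-3.72). These 4 pairs were also the 4 with the smallest member medians. The widest gaps, -19 points in experiment 3 on day 4 and -14.9 points in experiment 2 on day 2, went with the lowest medians, -1.54 and -1.57. The 14 points share arrays of 4 experiments, and the part of yield in the members' difference was not tested.

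**Figure D2:**
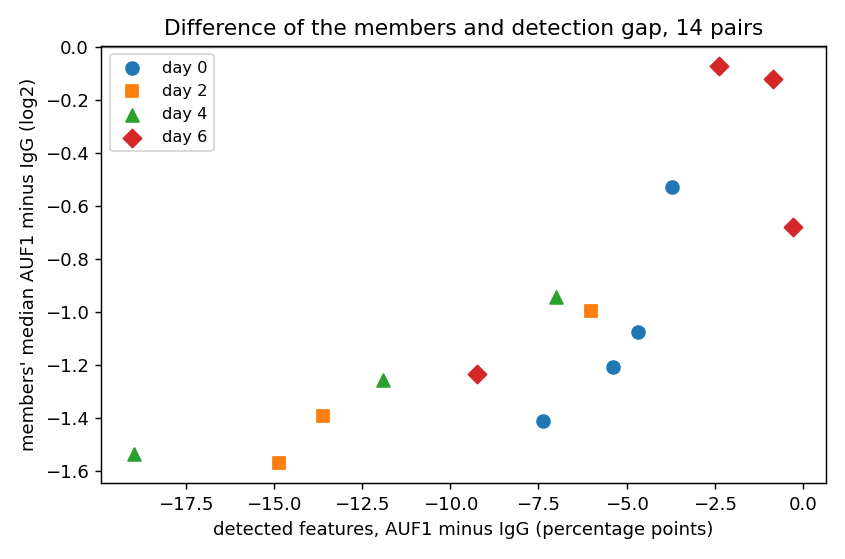
Members' median AUF1 minus IgG difference (log2, vertical axis) against the difference in the share of detected features between the AUF1 and IgG array of the pair (percentage points, horizontal axis), 1 point per pair, with colour and shape giving the day. Pairs with gaps of -3.72 points or closer to 0 have medians of -0.68 to -0.07, and the pairs with the widest gaps have the lowest medians.

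An IgG array of day 4 (experiment 2) had no AUF1 partner and so took no part in the pairs. It detected 25.6% of the features, the lowest share among the IgG arrays. Against the mean of the 3 AUF1 arrays of day 4 the members' median on it was higher by 0.58 (log2), and 114 of the 161 members lay above that mean (70.8%). The other detected features had a median of -0.11, with 44.8% above. Members above each of the 3 AUF1 arrays numbered 101 (62.7%), beside 31.8% of the other features. The members' median excess over AUF1 was 1.23 on the 3 paired IgG arrays of that day. Against the mean of those 3 IgG arrays the array without a partner was lower by a median of 0.83, with 31 of the 161 members above it. The AUF1 arrays of day 4 entered the rule, so the excess over them is not independent of the choice of the members.

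Ranks within each array placed the input beside both pulldowns without a shared scale. Each feature's raw signal was ranked among the 7506 detected features of its array and expressed as a percentile. Ranks compare a feature with itself on other arrays, because the signal of different features also depends on how well each hybridises. Over arrays, the members' median percentile was 63.5 ± 1.68 (SD, n = 15) in input, 58.8 ± 4.66 (SD, n = 14) with AUF1 and 77.5 ± 7.68 (SD, n = 15) with IgG. The input arrays ran from 60.3 to 66.3 and the AUF1 arrays from 52.1 to 67.2, so these ranges overlapped. The IgG arrays ran from 62.1 to 86.3, and 11 of them lay at 76.1 or higher, above every input and every AUF1 array. The other 4 were experiment 3 (62.1) and experiment 4 (66.9) on day 6, experiment 4 on day 0 (66.3) and the array without a partner on day 4 (69.3).

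By member, 134 of 161 had a higher mean percentile with IgG than in input (83.2%), and 72 had a higher one with AUF1 than in input (44.7%). Among the other detected features 51.6% and 54.3% did so. Most members thus ranked higher with IgG than in input, and fewer did so with AUF1. The IgG and AUF1 values entered the choice of the members, which raises the former and lowers the latter, so these shares describe the group and test nothing. In the input 106 members ranked above the 50th percentile, 49 above the 75th and 12 below the 25th.

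**Figure D3:**
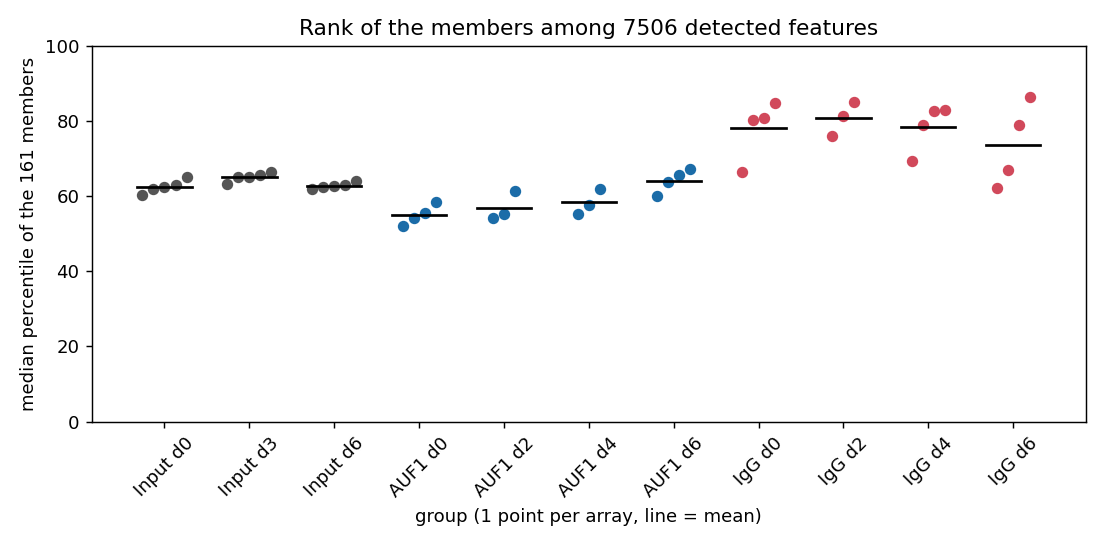
Median percentile of the 161 members among the 7506 detected features (vertical axis, 0 to 100), 1 point per array, with a line at the mean of each group of arrays (horizontal axis, antibody or input and day). Input arrays sit between 60.3 and 66.3, AUF1 arrays between 52.1 and 67.2, and most IgG arrays above both.

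The input time course asked which members change as the cells differentiate. The 15 input arrays were fitted together with limma (background correction and quantile normalization by neqc, a mean per day), with p-values adjusted by Benjamini-Hochberg over 13750 features. By day 3, 43 members were higher than on day 0 (26.7%; 17.2% of all features tested) and 32 were lower (19.9%; 20.3% of all). By day 6, 42 were higher (26.1%; 19.5% of all) and 46 were lower (28.6%; 23% of all). Among the other features detected with AUF1, 19.5% were higher and 24.8% lower on day 3, and 20.9% and 27.9% on day 6. With arrays scaled by their medians in place of quantile normalization the split of the members' calls was 24 higher and 37 lower on day 3, and 23 higher and 47 lower on day 6. The members therefore ran in both directions, and their median change was 0.03 (log2) on day 3 and -0.09 on day 6, beside -0.02 and -0.03 over all features. In RNA from whole cultures, fewer cells of a type and less RNA per cell cannot be told apart.

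Changes of 2-fold or more were reached by 17 members upward and 17 downward on day 3, and by 18 upward and 23 downward on day 6. These are 10.6% in either direction on day 3, beside 7.11% upward and 6.87% downward over all features tested. On day 6 they are 11.2% and 14.3%, beside 8.37% and 8.33% over all. Among the other features detected with AUF1 the shares were 8.27% upward and 8.75% downward on day 3, and 8.97% and 10.9% on day 6. Between day 3 and day 6 limma called 0 members (0.422% of all features were called higher and 0.0291% lower), and 13 members had an unadjusted p under 0.05. The members' median change was -0.09, with 112 of 161 below 0, against -0.01 over all features. Of all 13750 features tested, 7210 lay below 0 and 969 had an unadjusted limma p under 0.05. A total of 69 members passed the test in none of the 3 input comparisons. The matching share over all features was not counted, so this count describes the members and shows nothing particular to them. The day 3 and day 6 comparisons use the same day 0 arrays.

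The 2 members with the lowest AUF1 minus IgG difference were ILMN_2730425 and ILMN_3128792. For ILMN_2730425 the 4 AUF1 arrays of day 0 read 8.12, 8.62, 7.81 and 7.13 (log2, experiments 1 to 4) and the IgG arrays 10.98, 11.60, 11.10 and 8.83. On day 6 the AUF1 arrays read 9.66, 9.58, 9.62 and 10.51 and the IgG arrays 11.42, 12.33, 9.62 and 10.91. The antibodies did not overlap on day 0, where experiment 4 was the low IgG array, and they did on day 6, where experiment 3 gave the same reading with both. The mean difference of ILMN_2730425 over pairs was -2.20 ± 0.97 (SD, n = 14), a 4.60-fold excess with IgG, and it was below IgG in 13 pairs.

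ILMN_3128792 differed by -2.14 ± 1.16 (SD, n = 14), or 4.41-fold, and was also below in 13 pairs. Its AUF1 arrays read 8.85, 9.07, 7.82 and 8.84 on day 0 and 11.39, 11.18, 10.75 and 11.87 on day 6. Its IgG arrays read 11.59, 11.37, 11.60 and 10.63 on day 0 and 12.36, 12.83, 10.60 and 12.06 on day 6. On day 6 the pair difference was -0.97 in experiment 1 and -1.64 in experiment 2, but 0.15 in experiment 3 and -0.18 in experiment 4, so on this day the antibodies gave like readings in the 2 pairs with the low IgG level of the members. ILMN_2416670, the member with the highest input rise, differed by -2.14 ± 1.08 (SD, n = 14), or 4.39-fold, and was below IgG in all 14 pairs, with a smallest difference of -0.01 in experiment 3 on day 6.

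The 3 members were also the ones with the highest input changes. ILMN_2416670 read 5.89, 5.51, 6.42, 5.66 and 9.09 on the 5 input arrays of day 0, then 12.33, 12.46, 11.94, 11.80 and 11.99 on day 3 and 11.77, 12.09, 12.26, 11.64 and 12.01 on day 6. Every array of days 3 and 6 lay above every array of day 0, although the day 0 array of experiment 4 stood far above its group. The change was 5.59 ± 0.48 (SE, limma adjusted p = 8.64e-08) on day 3 and 5.44 ± 0.48 (SE, limma adjusted p = 8.86e-08) on day 6. Without the day 0 array of experiment 4 these changes were 6.24 and 6.08, so that array lowered the fold. They were 5.01 and 4.86 without background correction and 6.20 and 6.05 with array weights.

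ILMN_3128792 read 6.05, 5.67, 7.23, 6.49 and 9.49 in input on day 0 and 12.23 to 12.74 on day 3, a change of 5.52 ± 0.48 (SE, limma adjusted p = 1.18e-07). ILMN_2730425 read 5.49, 4.74, 6.48, 5.85 and 9.68 on day 0 and 11.64 to 11.94 on day 6, a change of 5.41 ± 0.60 (SE, limma adjusted p = 1.36e-06). The same day 0 array of experiment 4 was the highest of its group for both. Without it the changes were 6.15 and 6.22, and with array weights 6.23 and 6.28. Without background correction ILMN_2730425 changed by 4.74.

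On day 0 the 3 members ranked high with IgG and low in input. The mean percentile of ILMN_2730425 on that day was 26.5 ± 31 (SD, n = 5) in input, 55.6 ± 16 (SD, n = 4) with AUF1 and 91.4 ± 10.3 (SD, n = 4) with IgG. For ILMN_3128792 the day 0 percentiles were 34 in input, 71.5 with AUF1 and 96.7 with IgG, and for ILMN_2416670 they were 26.6, 66.2 and 94.6. The input ranges are wide because of the day 0 array of experiment 4, at 80.5, 78.0 and 71.5 for the 3 members, and the other 4 input arrays lay at 36 or lower. Each IgG array of day 0 lay above the other 4 input arrays. By day 6 the input stood at 96.9, 98.1 and 97.2, close to the IgG arrays at 94.5, 97.7 and 96.4.

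**Figure D4:**
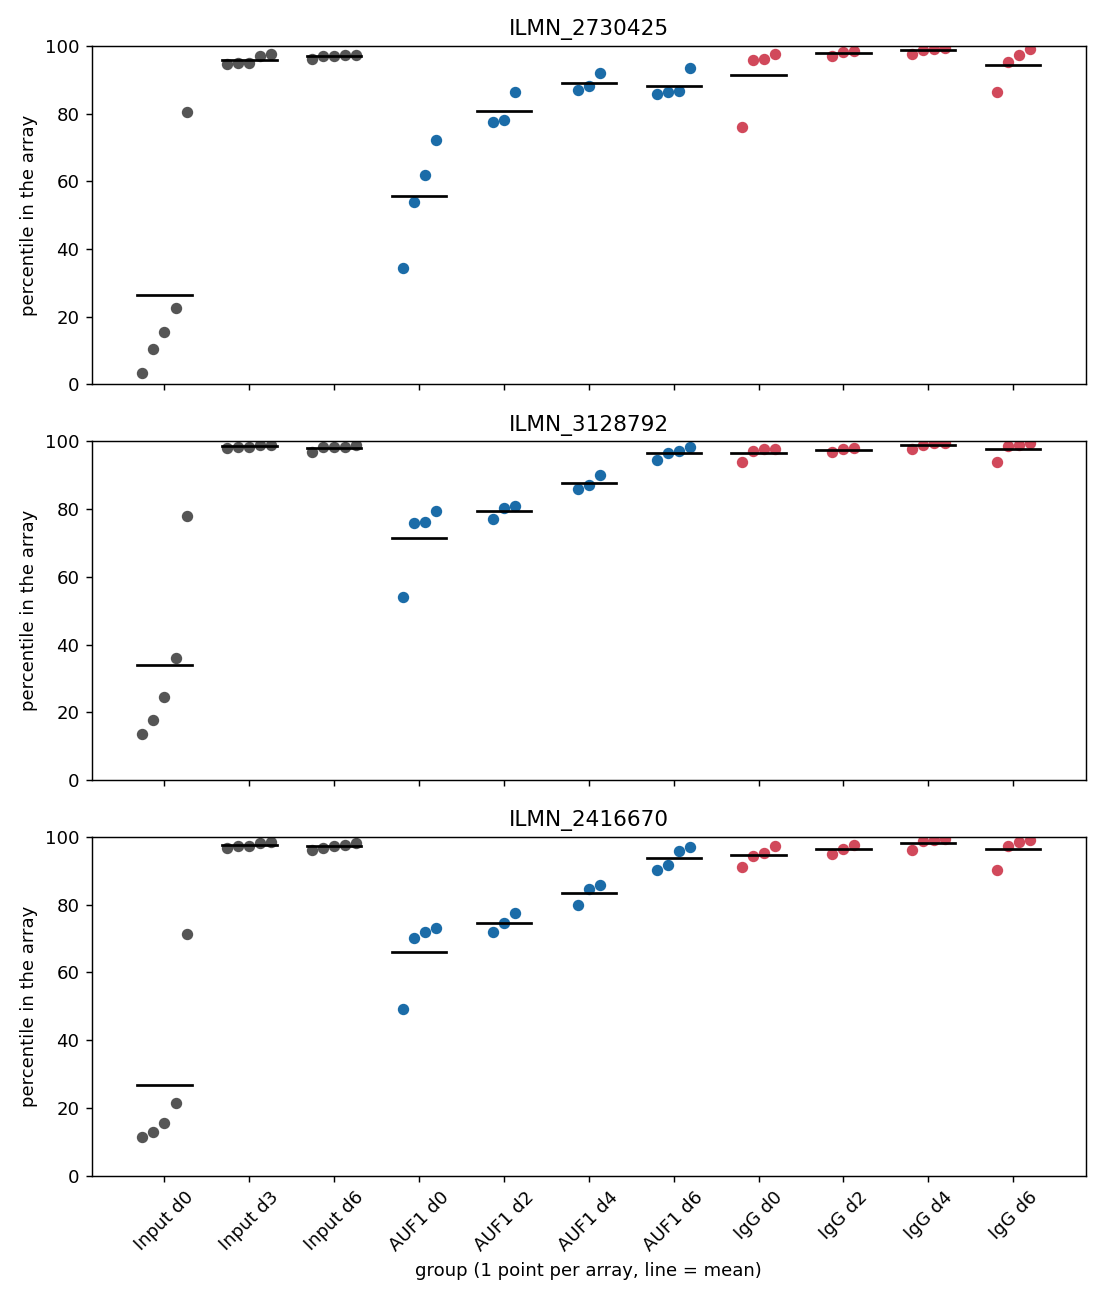
Percentile within each array (vertical axis, 0 to 100) of the members ILMN_2730425, ILMN_3128792 and ILMN_2416670, 1 point per array, with a line at the group mean (horizontal axis, antibody or input and day). In input the rank goes from low on day 0, with 1 array apart from the other 4, to near the top on days 3 and 6, the AUF1 rank is higher on day 6 than on day 0, and the IgG rank is near the top on each day.

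The members with the deepest falls in input were ILMN_2911855 and ILMN_2830661. ILMN_2911855 read 7.94, 7.54, 7.50, 7.42 and 8.82 on day 0 and 4.57 to 5.10 on day 3, and fell by 2.97 on the log2 scale (SE 0.23, limma adjusted p = 3.69e-08). Its day 6 readings were 4.68 to 5.50, a change of -2.90 ± 0.23 (SE, limma adjusted p = 3.63e-08). On day 3 it was detected on 4 of 5 input arrays, so these later readings are close to background. Without background correction the changes were smaller, at -2.01 on day 3 and -1.97 on day 6. ILMN_2830661 read 9.54 to 10.36 on day 0, and the later days lay wholly below that, at 6.55 to 8.05 (day 3) and 6.74 to 8.12 (day 6), with changes of -2.87 ± 0.30 and -2.82 ± 0.30 (SE, limma adjusted p = 9.11e-07 and 8.95e-07).

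No pulldown change of these 2 members passed the test. From day 0 to day 6 ILMN_2911855 changed by -0.24 ± 0.37 (SE) with AUF1 and by -0.38 ± 0.37 with IgG (limma adjusted p = 0.845 and 0.930). ILMN_2830661 changed by 0.01 ± 0.63 with AUF1 and by -0.95 ± 0.63 with IgG (limma adjusted p = 0.998 and 0.743). In rank, ILMN_2911855 went from 48.7 to 4.89 in input, and on day 6 stood at 34.3 with AUF1 and 49.3 with IgG.

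Change over days within each antibody was fitted on the 29 pulldown arrays, on the scale that chose the members, with p-values adjusted over 13812 features. With AUF1, limma called 19 members higher on day 6 than on day 0 (11.8%; 4.38% of all features tested) and 0 lower (3.62% of all). An unadjusted limma p under 0.05 was reached by 43 of 161 members, 2017 of 7345 other detected features and 2558 of all 13812. Among the other detected features 6.77% were called higher and 6.14% lower. The members' median change was 0.30 (log2), with 126 of 161 above 0, beside 0.01 over all features. The same AUF1 and IgG arrays of both days, on the same scale, chose the members. The counts and medians of these 2 comparisons therefore describe the members and are not independent of the rule. The same holds for the p-values of single members in them.

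The count depended on single AUF1 arrays. It was 12 without the day 0 array of experiment 1 or of experiment 3, 10 without that of experiment 4, and 11 without the day 6 array of experiment 4. The share called over all features, in both directions, fell as well, from 8% to 6.01%, 5.90%, 6.84% and 6.30%. With arrays scaled by their medians 1 member was called (0.621%; 0.456% of all features), while the median change stayed above 0 at 0.51.

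With IgG, 2 members were higher on day 6 (1.24%; 2% of all features tested) and 3 were lower (1.86%; 0.405% of all). The median change was -0.25, with 114 members below 0, beside -0.01 over all features. With arrays scaled by their medians 1 member was higher and 0 lower (0.948% of all features were called, against 2.40% before), and the median change was -0.10. The call count was 3 without the day 6 array of experiment 4 or the day 0 array of experiment 3, 9 without the day 6 array of experiment 2 and 11 without the day 0 array of experiment 4. Over all features these fits called 1.6%, 1.8%, 2.54% and 2.21%. Without the day 6 arrays of experiments 3 and 4 together, an alternative chosen after the data were seen, the median change turned to 0.29, with 3 members called (0.907% of all features). That alternative left out the 2 day 6 IgG arrays with the lowest member medians (8.13 and 8.35) and kept the day 0 array of experiment 4 (8.31). Leaving out low arrays of day 6 alone raises the change, so this turn does not settle the direction in the IgG arm. The difference between the AUF1 and IgG changes is the contrast of the rule and was not tested.

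ILMN_3064283 rose with both antibodies and in input. Its AUF1 arrays read 6.97, 7.43, 6.89 and 6.81 on day 0 and 9.42, 9.30, 10.53 and 10.37 on day 6, a change of 2.88 ± 0.32 (SE, limma adjusted p = 1.92e-06). Its IgG arrays went from 8.39, 8.63, 7.92 and 7.31 to 10.54, 10.86, 10.72 and 10.68, a change of 2.64 ± 0.32 (SE, limma adjusted p = 7.84e-06). The days did not overlap with either antibody, and in input it changed by 3.75 ± 0.21 (SE, limma adjusted p = 4.54e-10). On neqc values the AUF1 change was 3.46. It remained below IgG in all 14 pairs, by -1.08 on average.

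ILMN_3128792 changed by 2.65 ± 0.38 with AUF1 (SE, limma adjusted p = 7.64e-05), with all 4 day 6 arrays above all 4 of day 0, and by 0.66 ± 0.38 with IgG (SE, limma adjusted p = 0.651). With arrays scaled by their medians the AUF1 change missed the threshold (limma adjusted p = 0.0725, the highest of its 14 alternatives). ILMN_2768087 changed by 1.72 ± 0.35 with IgG (SE, limma adjusted p = 0.00423) and by 1.47 ± 0.35 with AUF1 (limma adjusted p = 0.00746). In 2 of 15 alternatives, median scaling and a fit on the arrays of the 2 days alone, the IgG call was lost.

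ILMN_2901944 and ILMN_3160369 had the lowest IgG changes. ILMN_2901944 read 10.51, 10.76, 10.67 and 7.98 with IgG on day 0 and 8.01, 8.92, 7.62 and 6.81 on day 6, a change of -2.14 ± 0.47 (SE, limma adjusted p = 0.00950). The days overlapped through the day 0 array of experiment 4, and without that array the change was -2.81. The call was lost in 6 of 15 alternatives (limma adjusted p up to 0.372), among them without the day 0 array of experiment 2 or 3 or the day 6 array of experiment 4. Without the day 6 arrays of experiments 3 and 4 together the change was -1.52. In input it changed by -1.39 ± 0.22 (SE, limma adjusted p = 5.56e-05).

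ILMN_3160369 read 11.79, 11.35, 11.26 and 9.87 with IgG on day 0 and 9.77, 10.45, 8.92 and 8.89 on day 6, a change of -1.56 ± 0.33 (SE, limma adjusted p = 0.00703). It changed by -0.03 ± 0.26 in input (SE, limma adjusted p = 0.951) and by -0.32 ± 0.33 with AUF1 (limma adjusted p = 0.730). For this member the threshold was passed with IgG alone, on arrays that the rule used, and whether the arms differ was not tested. Its IgG call was lost in 3 of 15 alternatives (limma adjusted p up to 0.754), and without the day 6 arrays of experiments 3 and 4 together the change was -0.96.

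Input change and AUF1 change were then set side by side. Of the 19 members called higher with AUF1, 16 were also called higher in input, which is 84.2% of the AUF1 calls and 38.1% of the 42 input calls. Over all features tested in both fits, 327 of 601 called higher with AUF1 were also called higher in input, which is 54.4% of the AUF1 calls and 13.4% of the 2446 input calls. Among the other features detected with AUF1 it was 250 of 497, which is 50.3% of the AUF1 calls and 16.4% of the 1528 input calls. Of the remaining 3 of the 19 members, 1 was called lower in input and 2 were not called. Of the 19, 17 had an IgG change above 0 and 2 were called with IgG. The matching shares over all features called higher with AUF1 were not counted, so these IgG counts only describe the 19. The input and pulldown arrays are different arrays, so these calls share no control array. Both series carry the same experiment numbers, and the labels do not say whether same-numbered arrays came from the same culture. The calls may therefore share cells, and whether they are independent was not tested.

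Members were also grouped by their input change from day 0 to day 6. The 42 that rose in input had a median AUF1 minus IgG difference of -1.07, the 46 that fell -0.92 and the 73 not called -0.96. No test was made between these classes, since the rule used the difference. The median AUF1 change over days was 0.83 in those that rose, 0.07 in those that fell and 0.29 in those not called, and the median IgG change was 0.06, -0.40 and -0.25. In each class the AUF1 median was the higher one.

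**Figure D5:**
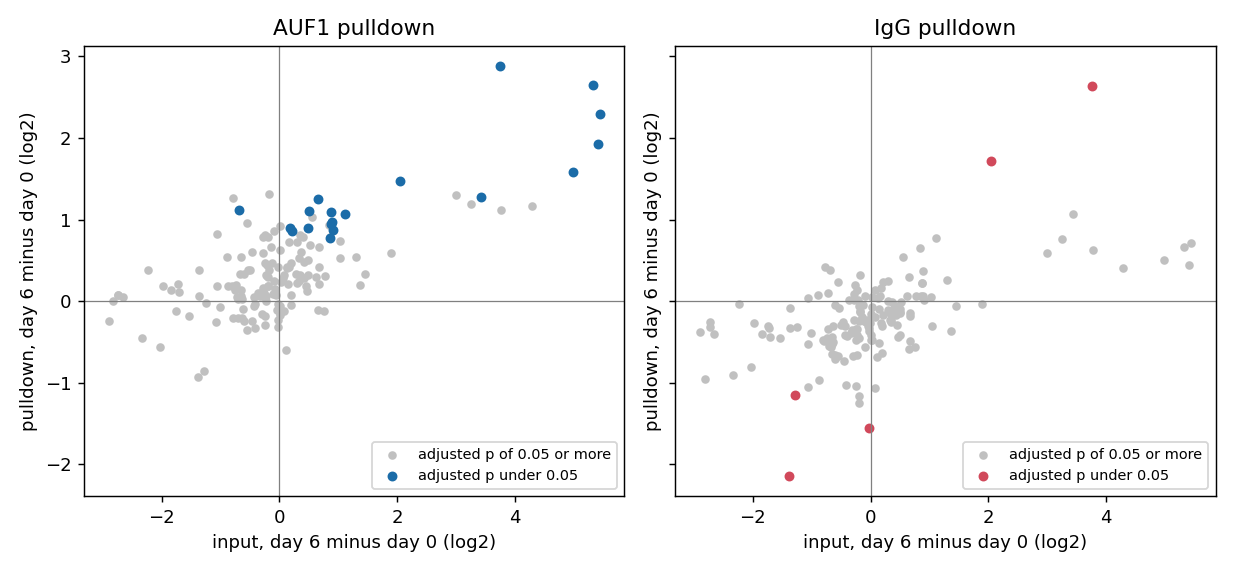
Change from day 0 to day 6 (log2) of the 161 members in the AUF1 pulldown (left) and the IgG pulldown (right), on the vertical axis, against their change in input on the horizontal axis. Coloured points passed the pulldown test at an adjusted p under 0.05, 19 with AUF1 and 5 with IgG, and most AUF1 calls lie to the right of 0 in input.

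Ranks showed the same classes on 1 scale. For the 42 members that rose, the median percentile in input on days 0, 3 and 6 was 52.6, 82.7 and 82.0. With AUF1 it was 54.8, 65.0, 73.4 and 75.2 on days 0, 2, 4 and 6, and with IgG 81.5, 89.1, 88.7 and 83.0. On day 0, 37 of these 42 members ranked higher with IgG than in input (88.1%), beside 53.0% of the 1528 other detected features that rose. Members that fell (73.9%) and members not called in input (83.6%) also ranked higher with IgG than in input on day 0 in most cases. The IgG values entered the rule, so these shares describe the members.

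The 46 members that fell in input stood at 67.3, 48.8 and 45.2 in input on days 0, 3 and 6. With AUF1 they stood at 55.4 on day 0 and 55.5 on day 6, after 45.7 on both days between. With IgG they went from 75.4 on day 0 to 64.3 on day 6. On day 6, 42 of these 46 members ranked higher with IgG than in input (91.3%) and 32 with AUF1 (69.6%). The other detected features that fell in input gave 72.6% and 72.5%, so a rank above input after a fall was common outside the members too, with either antibody. The 73 members not called in input stayed between 61.0 and 63.6 in input and went from 51.6 to 61.7 with AUF1 and from 76.3 to 69.5 with IgG.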

How the data were processed

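Per the file headers, each of 44 arrays has a non-normalized signal intensity and a detection p-value for 25697 features. The submitters' processing notes name GenomeStudio 1.6.0. No source used here states a background subtraction. The lowest deposited intensity was 32.4. No 2 signal columns were identical (0 pairs) and 0 were left unused. Columns carry the group, an experiment number (1 to 4) and an array number, and were assigned to groups, not to single titles.

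Members were found on quantile-normalized log2(signal) of the 29 pulldown arrays, and the same scale served the pulldown fits. Input arrays were processed with neqc (offset 16). Both were fitted with limma 3.58.1 in R 4.3.3 (lmFit, contrasts, eBayes, Benjamini-Hochberg), for features detected (p-value under 0.05) on 3 or more arrays of the fit, and calls are at an adjusted p under 0.05. Quantile normalization removes differences in total RNA. The number of arrays limits the precision.

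The members and the comparisons were chosen with earlier results of these data known. Named features are the 2 members with the lowest mean difference, up to 2 called members with the highest and 2 with the lowest change in each comparison, and the 2 on either side of the limit. Gene lists and cell type markers could not be applied without gene names. Same-numbered arrays of input days 3 and 6 correlated at 0.20 to 0.51 in their deviations, each over 0.1. They thus deviated together, but the labels do not say that they are pairs, and the printed fit has no block. With it 0 members were called as well. The other comparisons each had a value below 0.1, so no block was used in their printed fits. For AUF1 and IgG only experiment 2 lay there (0.03 and 0.005). Experiments 1, 3 and 4 gave 0.38, 0.29 and 0.58 with AUF1 and 0.43, 0.37 and 0.67 with IgG. Pulldown arrays of these experiments thus deviated together, and the printed pulldown fits leave this out. The fits were tested on simulated data with 100 features changed 2-fold and 100 changed 4-fold. The simulated noise was independent between features and arrays, with no deviation shared within an array or experiment. The shares recovered therefore need not hold for these data. Of 2-fold changes, 78% were recovered for input day 3 against day 0, 76% for day 6 against day 0, 79% for day 6 against day 3, 72% for AUF1 and 75% for IgG.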

Additional observations from a re-analysis of the deposited data

Results flagged for a closer look

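Groups of 4 or more values were examined in 82 cases, of which 72 were readings of the named members, 8 the members' median percentile by array and 2 their median difference by pair. In 6 of these, all readings of named members, the gap of 1 array to its nearest neighbour took up most of the range of the group. Chance alone gives about 1 in 20 groups. ILMN_2416670 read 9.09 on the day 0 input array of experiment 4, where the next highest array read 6.42. On the same input array ILMN_2830661 read 9.54, below the next lowest reading of 10.20. ILMN_2901944 read 7.98 on the day 0 IgG array of experiment 4, and the other 3 arrays read 10.51 or higher. ILMN_2416670 read 7.64 with AUF1 on day 0 in experiment 3, below the next reading of 8.51. ILMN_2730425 read 10.51 with AUF1 on day 6 in experiment 4, above the next reading of 9.66, and 11.64 on a day 6 input array of experiment 3, below the next reading of 11.86.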

How the results depend on the processing

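The number of members depended on how the rule was set. It was 313 on neqc values, 72 with a mean of -1 or lower and 69 with all 14 pairs below, and 140 to 244 with each pair left out, with the highest count without experiment 3 on day 6. Median scaling gave 2697, but there the median of all detected features moved to -0.58 and that of the 161 members to -1.94. Of 2 choices made after the data were seen, leaving out pairs whose AUF1 array detected under 30% of the features gave 93 (85 of them members) and leaving out experiments 3 and 4 on day 6 gave 313. The total input counts stayed within 1.5 times under all 17 alternatives each, with 61 to 91 calls for day 3, 70 to 106 for day 6 and 0 between these days, the replicate block included. The count of members called higher did not, since median scaling took it from 43 to 24 (day 3) and from 42 to 23 (day 6). Fewer of all tested features were called under that scaling too, and their calls were not counted by direction. With the 2 input arrays of 1 day and experiment number averaged, an alternative added after the data were seen, 68, 79 and 0 members were called.

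The 19 AUF1 calls became 1 with median scaling, 12 with no detection filter, 46 with array weights, 34 with the replicate block, 32 on the arrays of the 2 days alone and 10 to 18 with each array left out. The 5 IgG calls became 1 with median scaling, 25 with array weights, 9 with the replicate block, 1 on the arrays of the 2 days alone, 3 to 11 with each array left out, and 3 without the day 6 arrays of experiments 3 and 4. These counts stand here without the share over all features and describe the fits, not a trait of the members. In the input fit of day 3 array weights raised the share called over all features too, from 37.4% to 45%. The printed fits do not take the experiment numbers as pairs, and the causes were not tested. No named change turned its direction in any alternative.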
